A study of Mus musculus with 46 samples.

Results

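The mammary tumors compared here arose in female FVB mice that carried one of 2 oncogene transgenes, c-Myc (MMTV-C-Myc) or the Her2/neu receptor (MMTV-H2N), each driven by the long terminal repeat promoter of mouse mammary tumor virus (MMTV). The models were chosen as sharing the FVB strain and a similar array brightness, with earlier results of these data known. Within them the tumors were taken by model label, which gave 4 MMTV-C-Myc and 5 MMTV-H2N tumors out of 46 samples. The other samples were tumors of 6 further mouse models and 5 normal mammary glands of pregnant FVB mice, and they enter only where levels across groups are described. The tumors were primary, from individual mice, and each was hybridized to an array of its own. Transgenes under this promoter are expressed mainly in the mammary epithelium but not there alone. Neither group holds a control gland without an oncogene, so each difference is between the 2 kinds of tumor and says nothing of which of them departed from normal tissue. The age of the mice was not given in the sources used here.

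MicroRNAs (miRNAs) are short RNAs that pair with messenger RNAs, mostly through bases 2 to 8 from their 5′ end (the seed), and lower the stability and translation of those messengers. MYC is a transcription factor that activates the miR-17-92 cluster and its paralogs and is known to repress many other miRNAs, among them let-7, miR-29, miR-26 and miR-15/16 members. HER2, the product of the Her2/neu gene, is a receptor tyrosine kinase that signals through the Ras and phosphoinositide 3-kinase pathways. In mammary epithelium the miR-200 family and miR-205 are known for keeping cells epithelial, by repression of the Zeb transcription factors.

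The mature sequences of the miRNAs that the comparison turns on are shown here with the seed in capitals. They come from RefSeq (build GRCm38.p6), in which 127 of the 334 miRNAs of the array (38%) could be matched by name, including 16 of the 24 with the largest folds defined further on. The following 6 were higher in MMTV-C-Myc tumors.
miR-21a-5p (chr11:86584120-86584141, minus strand; miR-21 on the array): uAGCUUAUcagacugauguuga
miR-666-5p (chr12:109717103-109717124, plus strand; miR-666 on the array): aGCGGGCAcagcugugagagcc
miR-615-3p (chr15:103014969-103014990, plus strand; miR-615 on the array): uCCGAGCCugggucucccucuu
miR-675-5p (chr7:142577112-142577133, minus strand): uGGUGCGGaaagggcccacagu
miR-494-3p (chr12:109715367-109715388, plus strand; miR-494 on the array): uGAAACAUacacgggaaaccuc
miR-503-5p (chrX:53054027-53054049, minus strand; miR-503 on the array): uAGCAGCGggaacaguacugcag

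The next 3 sequences are from miRNAs that were lower in MMTV-C-Myc tumors.
miR-193a-3p (chr11:79712009-79712030, plus strand; miR-193 on the array): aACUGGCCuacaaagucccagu
miR-211-5p (chr7:64205831-64205852, plus strand; miR-211 on the array): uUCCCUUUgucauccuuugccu
miR-294-3p (chr7:3220691-3220712, plus strand; miR-294 on the array): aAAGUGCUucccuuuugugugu

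The last sequences show members of seed families that were called different between the models by the test given further on. miR-17-5p and miR-20a share the seed AAAGUGC, held by 6 matched miRNAs of which these 2 were called. The 3 miR-30 members shown share GUAAACA, and 2 further miR-30 members of the array were not called.
miR-17-5p (chr14:115043684-115043706, plus strand): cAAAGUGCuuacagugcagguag
miR-20a-5p (chr14:115044183-115044205, plus strand): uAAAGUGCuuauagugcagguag
miR-30a-5p (chr1:23272274-23272295, plus strand): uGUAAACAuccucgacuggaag
miR-30c-5p (chr4:120769584-120769606, minus strand, with a further copy on chromosome 1): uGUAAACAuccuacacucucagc
miR-30e-5p (chr4:120772660-120772681, minus strand): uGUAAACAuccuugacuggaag

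Each of the 334 mouse miRNAs had 4 spots on an array. A level is the log2 signal minus the median of the array, averaged over the 4 spots, and above the floor means a signal over 3 times the 5th percentile of the spots of an array, which is its floor. Floors were 33.3 to 60.9 array units on the MMTV-C-Myc arrays and 21.0 to 61.3 on the MMTV-H2N arrays, and between 172 and 251 miRNAs were above the floor. Median signals were 137 to 283 and 140.4 to 674 units, so the ranges of the groups overlapped, and MMTV-H2N replicates 2 and 5 had the highest medians. Levels correlated across miRNAs with r of 0.86 to 0.94 within MMTV-C-Myc, 0.87 to 0.98 within MMTV-H2N and 0.69 to 0.90 between the groups, which is a description, since miRNAs are not independent replicates. The median SD of a miRNA was 0.33 between its spots, 0.70 between MMTV-C-Myc arrays and 0.76 between MMTV-H2N arrays. The labeled tissue was checked against the epithelial miR-200 family, whose 5 members exceeded that bound on all 9 arrays.

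Between the models, 57 of 334 miRNAs (17.1%) were higher in MMTV-C-Myc tumors and 31 (9.28%) were lower, at an adjusted p under 0.05. The test was limma on the log2 levels of 4 against 5 arrays, two-sided, with Benjamini-Hochberg adjustment over all 334 miRNAs, and every adjusted p below comes from it unless an alternative is named. Standard errors of the log2 folds were 0.50 to 0.79, and limma moderates them by drawing the spread of each miRNA toward that of all miRNAs. The median log2 fold over all miRNAs was 0.23. The higher calls were also the larger ones, with 23 of them past a log2 fold of 3 against 3 of the lower calls. All 4 MMTV-C-Myc arrays lay above all 5 MMTV-H2N arrays for 44 miRNAs (13.2%), and 41 of these were called. All lay below for 21 (6.29%), and 15 of these were called.

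**Figure D1:**
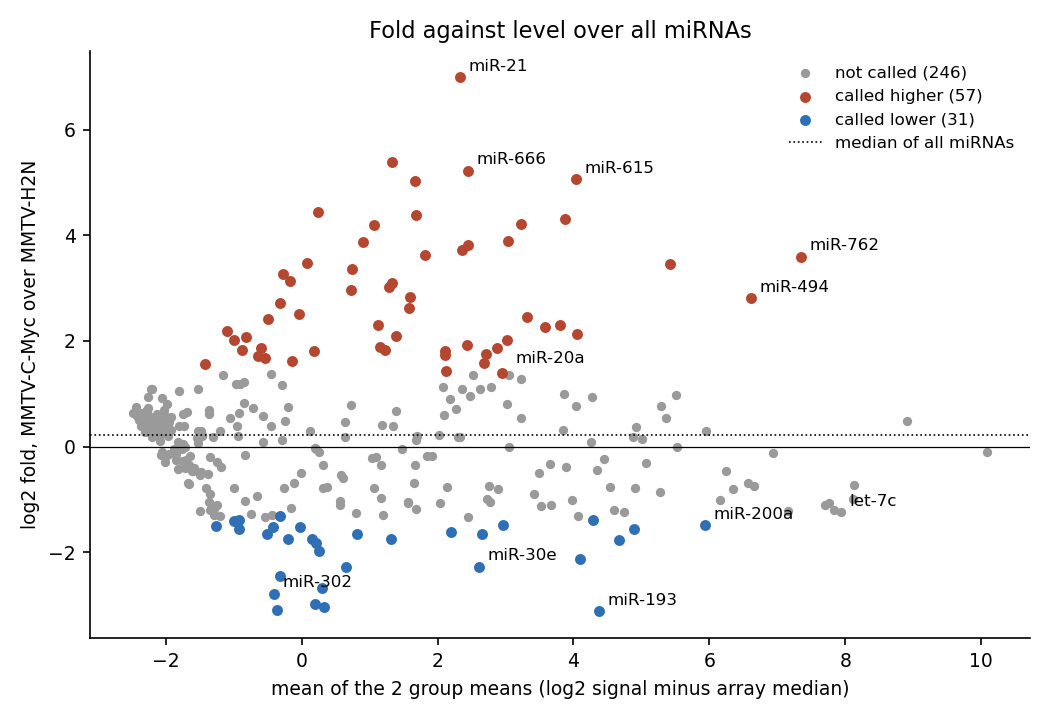
Log2 fold of MMTV-C-Myc over MMTV-H2N (y axis) against the mean of the group means in log2 signal minus the array median (x axis), 1 point per miRNA, colored by call. The 57 higher calls reach 6.99 for miR-21 and the 31 lower calls reach -3.12 for miR-193, and the dotted line is the median fold of 0.23.

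The number of calls in each direction depended on how arrays were scaled to each other. With the median of each array as reference 64.8% of the calls were higher. With the 75th percentile the median fold became -0.50 and the split was 40 higher against 94 lower (29.9% higher). It was 50 against 50 (50%) when arrays were scaled to the brightest miRNAs, 51 against 65 (44.0%) after quantile normalization, and 34 against 57 (37.4%) with no scaling. No called miRNA was called in the opposite direction in any of them, and all 31 lower calls were still lower calls with the 75th percentile, quantiles or no scaling. A fold is therefore relative to the median miRNA of the array, and a shift of that median between the models cannot be told apart from a shift of the rest.

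**Figure D2:**
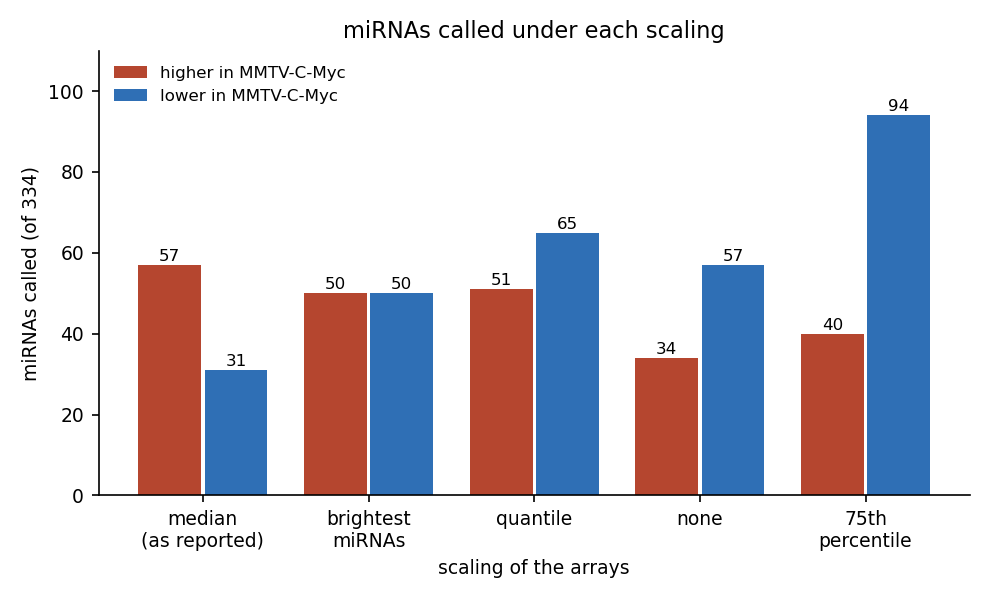
Number of miRNAs called higher or lower in MMTV-C-Myc (y axis, of 334) under 5 ways of scaling the arrays (x axis). Higher calls range from 34 to 57 and lower calls from 31 to 94.

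The number of calls also depended on single arrays. It was 69 to 113 in all when each array was left out in turn, against 88 with all arrays. Higher calls stayed between 50 and 62. Lower calls fell to 19 without MMTV-C-Myc replicate 3 or MMTV-H2N replicate 3, and rose to 51 without MMTV-H2N replicate 5. Among the 57 higher calls, MMTV-C-Myc replicate 1 was the lowest array of its group in 35 and replicate 4 the highest in 37, compared with 63 and 141 of all 334 miRNAs. The values of replicate 4 carry fewer digits than those of the other 8 arrays. The median SD of the higher calls was 1.12 within MMTV-C-Myc and 0.69 within MMTV-H2N, and that of the lower calls was 0.50 and 0.80.

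The largest fold was that of miR-21, an oncogenic miRNA known to repress the tumor suppressor Pdcd4. Its signal was 89716, 22741, 740.1 and 9667 array units in MMTV-C-Myc replicates 1 to 4, and 106, 280.3, 65.8, 157 and 107.2 in MMTV-H2N replicates 1 to 5. The groups did not overlap, but MMTV-C-Myc replicate 3 was far below the other 3, and the SD of the level was 3.30 in MMTV-C-Myc, the spread behind the largest standard error of the comparison. The log2 fold was 6.99 ± 0.79 (SE, adjusted p = 1.85e-09), and 3 of the 5 MMTV-H2N arrays were above the floor. That SE is the moderated one, which draws the large spread of miR-21 toward that of all miRNAs. The call was kept in every alternative, the methods' t-test among them, but with an adjusted p of up to 0.0190. Without MMTV-C-Myc replicate 3 the log2 fold of miR-21 (mmu-miR-21) was 8.47, and without replicate 1 it was 5.91. Across the other groups the mean level of miR-21 was 6.67 in MMTV-Hras, 7.10 in MMTV-PymT, 6.87 in MMTV-Wnt, 5.60 in normal gland, 4.82 in p53-/-, 5.91 in Brca1-/-p53+/- and 0.65 in C3TAg. The MMTV-C-Myc mean of 5.82 lay below the other 3 MMTV models and near normal gland, and the MMTV-H2N mean of -1.17 ± 1.06 (SD) was the lowest of the 9 groups. The highest MMTV-H2N array (-0.09) was thus below the lowest arrays of MMTV-Hras (5.78), MMTV-PymT (6.18), MMTV-Wnt (6.27) and normal gland (5.05). In C3TAg only 1 of 5 arrays was above the floor, so the order of C3TAg and MMTV-H2N, both near background, is uncertain.

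miR-666, which lies in the imprinted Dlk1-Dio3 region of chromosome 12, had signals of 1595, 10091, 7114 and 15265 units in MMTV-C-Myc tumors and 313, 327, 117, 163 and 536 in MMTV-H2N tumors. All MMTV-C-Myc values were above all MMTV-H2N values, and replicate 1 was the lowest of the 4. The log2 fold was 5.22 ± 0.57 (adjusted p = 1.79e-09). miR-615, encoded in an intron of Hoxc5, measured 4582, 31868, 18216 and 43845 units against 702, 1354, 397, 523 and 1763. Again the groups were separate and replicate 1 was the lowest of MMTV-C-Myc. Its log2 fold was 5.07 ± 0.57 (adjusted p = 1.85e-09).

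miR-675-5p is processed from H19, an imprinted long noncoding RNA of chromosome 7. It measured 352, 1018, 1437 and 2505 units in MMTV-C-Myc and 88.1, 115, 41.5, 46.4 and 100.4 in MMTV-H2N, where 1 of 5 arrays was above the floor. The log2 fold of 4.44 ± 0.55 (adjusted p = 1.69e-08) therefore rests on a low group close to background. miR-138, known from neurons for its control of dendritic spine size, measured 389, 1411, 1402 and 4837 units against 51.1, 319, 112, 149 and 195.8, with a log2 fold of 3.87 ± 0.56 (adjusted p = 5.16e-07). Both were separate between the groups. miR-138 has 2 genomic copies with the same mature sequence, on chromosomes 8 and 9, and the array cannot tell them apart.

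The other 7 of the 12 largest higher folds were miR-714, miR-712, miR-680, miR-705, miR-689, miR-696 and miR-706, for which no target role is given here. miR-714 measured 850.1, 1842, 5247 and 12006 units in MMTV-C-Myc against 78.9, 227, 71.6, 87.8 and 146 in MMTV-H2N (log2 fold 5.39 ± 0.56, adjusted p = 8.11e-10, the smallest of the comparison). Its lowest MMTV-C-Myc array was replicate 1 and its highest was replicate 4, and 2 of 5 MMTV-H2N arrays were above the floor. miR-712, which has been traced to the spacer of the ribosomal RNA precursor, had a log2 fold of 5.03 ± 0.61 (adjusted p = 1.34e-08). The remaining 5 had log2 folds of 3.89 to 4.38, and their adjusted p lay between 3.86e-08 and 1.52e-07. miR-705 was the brightest of the 5 in MMTV-H2N, at 519.9 to 2193 units there and 3771 to 30584 units in MMTV-C-Myc, so its fold does not rest on values near the floor. miR-680 has 3 identical copies, on chromosomes 6, 12 and X.

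**Figure D3:**
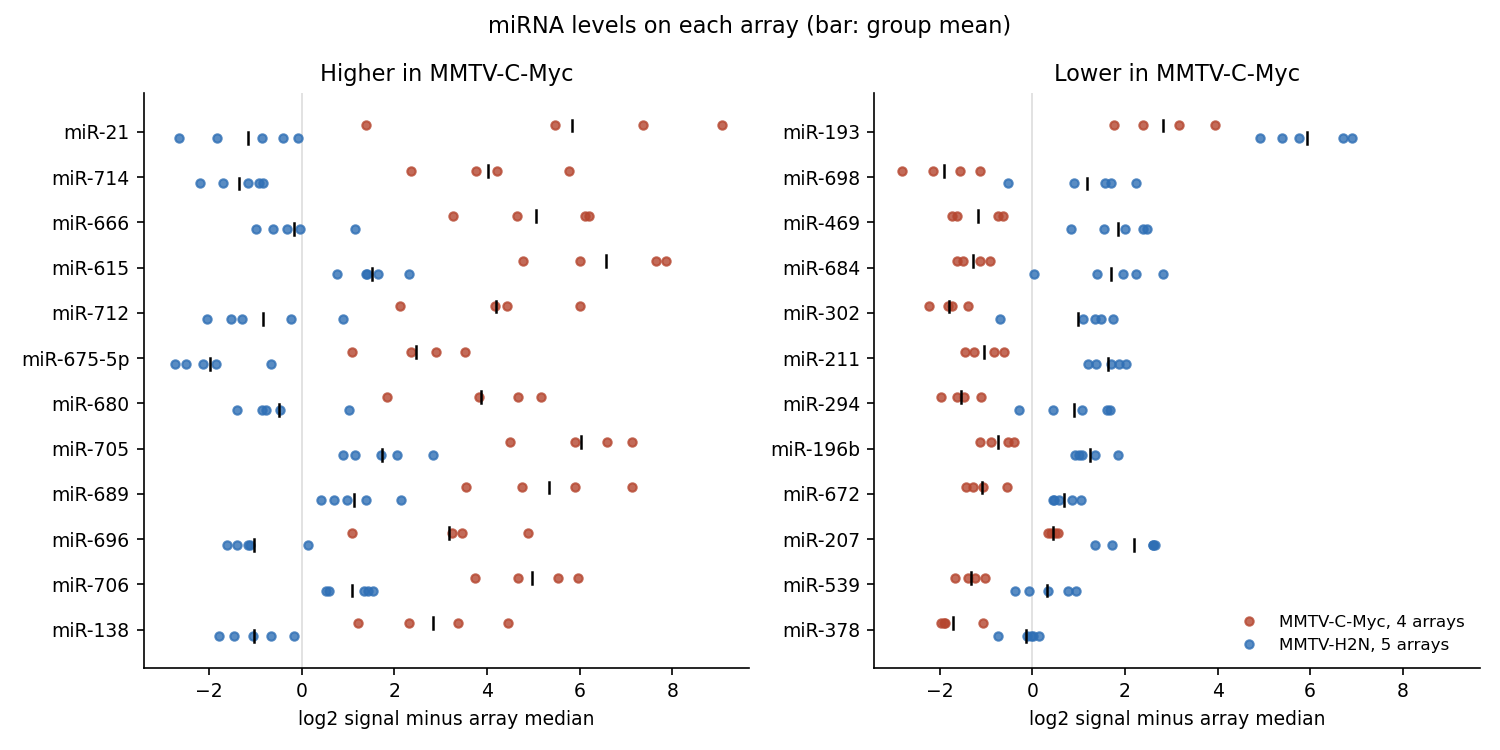
Level on each array (log2 signal minus the array median, x axis) of the 12 miRNAs with the largest higher folds (left) and the 12 with the largest lower folds (right), with 1 point per array and a bar at each group mean. The 4 MMTV-C-Myc points do not overlap the 5 MMTV-H2N points in any of the 24, which is part of how they were chosen, and the miR-21 points of MMTV-C-Myc range from 1.39 to 9.07.

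Very bright miRNAs were among the higher calls too. miR-762 measured 31306, 123481, 153017 and 251499 units in MMTV-C-Myc and 7904, 21460.2, 8545, 10014 and 29885 in MMTV-H2N (log2 fold 3.60 ± 0.54, adjusted p = 7.73e-07). miR-494, which like miR-666 lies in the Dlk1-Dio3 region, measured 33091, 37456, 67133 and 77269.8 units against 5915, 22438, 9087, 8807 and 12187 (log2 fold 2.81 ± 0.51, adjusted p = 2.21e-05). Both were separate between the groups also before scaling. The level of miR-494 had an SD of only 0.35 over the MMTV-C-Myc arrays, against 1.16 for miR-762. miR-711 had a log2 fold of 3.46 ± 0.54 and was above the floor on all 9 arrays, as were 31 of the 57 higher calls. The MMTV-C-Myc mean level of miR-494 (8.02) was above that of the 8 other groups, of which MMTV-H2N was the next at 5.21, followed by MMTV-PymT (5.14) and MMTV-Wnt (4.84). The ranges of those last 3 groups overlapped. miR-494 is on the list the study drew from these samples for MMTV-C-Myc, so this position was part of how it was chosen.

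The study named 16 miRNAs as particular to MMTV-C-Myc tumors, among them miR-666, miR-615, miR-712, miR-714, miR-762, miR-494, miR-491 and miR-744. It chose them on these samples, so their direction is not independent evidence. Against MMTV-H2N alone, 15 of the 16 were higher calls (background 17.1%), with a median log2 fold of 3.53. The exception was miR-320, at 0.95 ± 0.53 (adjusted p = 0.192). Of the 11 that the study named for MMTV-H2N, 4 were lower calls in MMTV-C-Myc (miR-193, miR-469, miR-684 and miR-539, against a background of 9.28%) and 7 were not called, with a median of -1.11. With the 75th percentile 9 of the 11 were lower calls, beside 94 of all 334 miRNAs. The 7 not called with median scaling were miR-98, miR-130b, miR-185, miR-691, let-7d, let-7e and let-7f, with log2 folds from -1.22 to 0.32. The signs of miR-185 (0.32 ± 0.53) and miR-691 (-0.18 ± 0.51) turned under some alternatives.

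miR-424, miR-503 and miR-351 lie within 1013 bases of the X chromosome (chrX:53053315-53054327), and all 3 were higher calls (background 17.1%). miR-351 is on the list the study drew from these samples, and miR-503 was chosen after its values were seen. The stretch is bounded by these 3 chosen members. A further array miRNA on the same strand, miR-542-5p (chrX:53049453-53049474), lies outside it and is not counted here. The count is therefore not read as a result about the wider neighborhood. miR-503 and miR-424 belong to the wider miR-16 family, which slows the cell cycle, and mouse miR-351 has the seed of miR-125. miR-503 measured 106, 333, 823 and 2131 units in MMTV-C-Myc tumors. In MMTV-H2N it measured 61.3, 183, 52.7, 58.2 and 71.2 units and was above the floor on no array. It was at least 6.44-fold higher in MMTV-C-Myc (adjusted p = 2.07e-05), where such a bound sets each dim array at the higher of 3 times its floor and its own signal. miR-351 was above the floor on all 9 arrays, with a mean level of 2.87 ± 1.12 (SD) against -0.22 ± 0.65, and a log2 fold of 3.09 ± 0.55 (adjusted p = 1.6e-05). miR-424 had a smaller log2 fold of 1.44 ± 0.50 (adjusted p = 0.0271). That call was lost when any of 5 arrays was left out (MMTV-C-Myc replicate 1, 2 or 3, MMTV-H2N replicate 2 or 4), with an adjusted p of up to 0.0705. It was also lost with the 75th percentile, with unscaled values and with a trend in eBayes, at up to 0.259 over all alternatives.

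Among the miRNAs lower in MMTV-C-Myc tumors, miR-193 had the largest fold. It measured 570.4, 2095, 1489.6 and 1981 units in MMTV-C-Myc and 5904, 27667, 24582, 19955 and 20269 in MMTV-H2N. Every MMTV-H2N array was above every MMTV-C-Myc array, all 9 arrays were above the floor, and the lowest scaled levels were those of MMTV-C-Myc replicate 1 (1.77) and MMTV-H2N replicate 5 (4.91). The log2 fold was -3.12 ± 0.55 (adjusted p = 1.46e-05). The mean level of 5.94 in MMTV-H2N was the highest of the 9 groups, next to 5.13 in normal gland with an overlapping range, and the MMTV-C-Myc mean of 2.82 was close to those of MMTV-PymT (3.02), MMTV-Hras (3.30) and MMTV-Wnt (3.38), whose ranges it overlapped. The highest array of those 3 models, an MMTV-PymT array at 4.63, was below the lowest MMTV-H2N array. The study named miR-193 for MMTV-H2N from these samples, so this position was part of how it was chosen.

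miR-193, matched to miR-193a-3p, and miR-365 lie within 14480 bases of chromosome 11 (chr11:79712009-79726488). miR-365 has a further copy with the same mature sequence on chromosome 16, and the array cannot tell the copies apart. miR-378 is encoded in Ppargc1b, a gene of fat and muscle metabolism. These 3 miRNAs formed the fat list. All 3 members of this fat list, of which miR-193 is also on the list the study drew from these samples, were lower calls (background 9.28%), with a median log2 fold of -1.56, and the summed signal of the list was 2676 to 4871 units in MMTV-C-Myc and 13115 to 44730 in MMTV-H2N. Its part in other results was not tested. miR-378 was above the floor on no MMTV-C-Myc array and was at least 1.43-fold lower there (adjusted p = 0.016), and without MMTV-H2N replicate 2 its adjusted p was 0.0505. miR-365 was above the floor on all 9 arrays at a log2 fold of -1.40 ± 0.53 (adjusted p = 0.0437). Leaving out any of 7 arrays, all but MMTV-C-Myc replicate 2 and MMTV-H2N replicate 5, ended the miR-365 call, with an adjusted p of up to 0.147. In bulk tissue, fewer cells of a type and less of a miRNA per cell cannot be told apart.

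Many of the lower calls were of miRNAs near background in MMTV-C-Myc tumors. All 31 were tested, and of these 14 were above the floor on at most 1 MMTV-C-Myc array while 12 were above it on all 4. miR-302, a miRNA of pluripotent cells, measured 35.7, 40.9, 79.7 and 84.1 units in MMTV-C-Myc, none above the floor, and 85.9, 1419.8, 776, 429.7 and 1439 in MMTV-H2N. MMTV-H2N replicate 1 was far below the other 4 arrays of its group. miR-302 was at least 3.14-fold lower in MMTV-C-Myc (adjusted p = 4.82e-05), and miR-698, which was also above the floor on no MMTV-C-Myc array, was at least 3.56-fold lower (adjusted p = 1.88e-05).

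miR-211, encoded in an intron of the melanocyte gene Trpm1, measured 60.5, 77, 185 and 90.9 units in MMTV-C-Myc and 361, 1644, 850.1, 684 and 1559 in MMTV-H2N. The groups were separate, with 1 MMTV-C-Myc array above the floor, and the log2 fold was -2.68 ± 0.50 (adjusted p = 3.76e-05). The miR-211 level was similar in MMTV-Hras (mean 1.71) and MMTV-H2N (1.63), whose ranges overlapped. miR-469 (-3.03 ± 0.52) and miR-684 (-2.98 ± 0.54) were likewise above the floor on 1 MMTV-C-Myc array and on all 5 MMTV-H2N arrays. miR-672, miR-207 and miR-539, the last a Dlk1-Dio3 member, completed the set with log2 folds of -1.76, -1.74 and -1.65. Of these, miR-207 was above the floor on all 9 arrays, and its SD over MMTV-C-Myc arrays was 0.10.

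The miR-196 pair is encoded within the Hox clusters and represses Hox genes. Its members share the seed AGGUAGU, and both were lower calls in MMTV-C-Myc (background 9.28%). miR-196b had a mean level of -0.74 ± 0.34 (SD) in MMTV-C-Myc and 1.24 ± 0.37 in MMTV-H2N, with no overlap (log2 fold -1.98 ± 0.50, adjusted p = 0.0021). miR-196a had a log2 fold of -1.52 ± 0.52 (adjusted p = 0.0243) with overlapping groups. The miR-196a call was lost without MMTV-C-Myc replicate 2, 3 or 4 or MMTV-H2N replicate 3, with an adjusted p of up to 0.0924. It was also lost in the wider fits and by the methods' t-test, at up to 0.135 over all alternatives.

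Of the MYC-activated miR-17-92 cluster and its paralogs, 12 members were on the array. All 12 had a positive log2 fold, with a range of 0.17 to 2.02 and a median of 1.32, beside 0.23 over all miRNAs. The test called 5 of them higher (miR-20a, miR-25, miR-92, miR-18 and miR-17-5p), against a background of 17.1%, and none lower. miR-20a, which represses E2f family messengers, had levels of 5.01, 3.81, 3.59 and 3.74 in MMTV-C-Myc replicates 1 to 4, and 2.77, 1.39, 2.35, 2.59 and 0.98 in MMTV-H2N replicates 1 to 5. The groups were separate and MMTV-C-Myc replicate 1 stood above the others (log2 fold 2.02 ± 0.53, adjusted p = 0.00288).

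The rest of the miR-17-92 calls were less firm. miR-25 (1.76 ± 0.55, adjusted p = 0.0134) and miR-92 (1.73 ± 0.53, adjusted p = 0.0118) share the seed AUUGCAC, and without MMTV-C-Myc replicate 1 their adjusted p was 0.0556 and 0.05003. miR-18 (1.62 ± 0.54, adjusted p = 0.0191) was lost without MMTV-C-Myc replicate 2 or MMTV-H2N replicate 2, at up to 0.0591. miR-17-5p (1.40 ± 0.52, adjusted p = 0.0402) was separate between the groups but was lost without MMTV-C-Myc replicate 1, 2 or 3 or MMTV-H2N replicate 2 or 4, at up to 0.14. The members not called included miR-106a (1.28 ± 0.52, adjusted p = 0.0605) and miR-93 (1.36 ± 0.55, adjusted p = 0.061). Scaling to the 75th percentile, quantiles or no scaling left 1 member called of the 12, and leaving out MMTV-C-Myc replicate 1 left 2. Over all 334 miRNAs these settings gave 40, 51, 34 and 56 higher calls. The mean level of miR-20a in MMTV-C-Myc (4.04) lay among those of MMTV-Wnt (4.53), MMTV-PymT (4.47), MMTV-Hras (3.81) and normal gland (3.38), with overlapping ranges, and the MMTV-H2N mean of 2.02 was the lowest of these.

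The MYC-repressed list of 14 miRNAs left out let-7c and the called miR-30 members, whose families were listed apart (median log2 folds -1.08 and -1.56). It therefore does not speak for let-7, which MYC is also known to repress. With median scaling none of the 14 was called by limma or by the methods' t-test (4 had an unadjusted limma p under 0.05), and their median log2 fold was -0.33. With the 75th percentile 6 were lower calls (94 of all 334 miRNAs), after quantile normalization 5 (65 of 334), and with the brightest miRNAs or no scaling 4 (50 and 57 of 334). Those with the largest folds were miR-497 (-1.34 ± 0.56, adjusted p = 0.0677) and miR-195 (-1.32 ± 0.55, adjusted p = 0.0677), a clustered pair of the miR-15/16 family. None of the 9 let-7 members was called either by limma (5 at an unadjusted p under 0.05) or by that t-test, although all 9 folds were negative, with a median of -1.08. let-7 miRNAs repress Ras, Myc and Hmga2 and are among the brightest of the array. let-7c had a mean level of 7.32 ± 0.74 (SD) in MMTV-C-Myc and 8.56 ± 0.58 in MMTV-H2N (log2 fold -1.24 ± 0.52, adjusted p = 0.0722). The let-7 result hinged on the scaling. Lower calls were 8 of the 9 with the 75th percentile, beside 94 of all 334 miRNAs. They were 7 with no scaling (57 of 334) or with scaling to the brightest miRNAs (50 of 334), and 4 after quantile normalization (65 of 334). Without MMTV-H2N replicate 5, 5 were lower calls (51 of all 334), and without MMTV-C-Myc replicate 1, 2 were (38 of all 334).

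**Figure D4:**
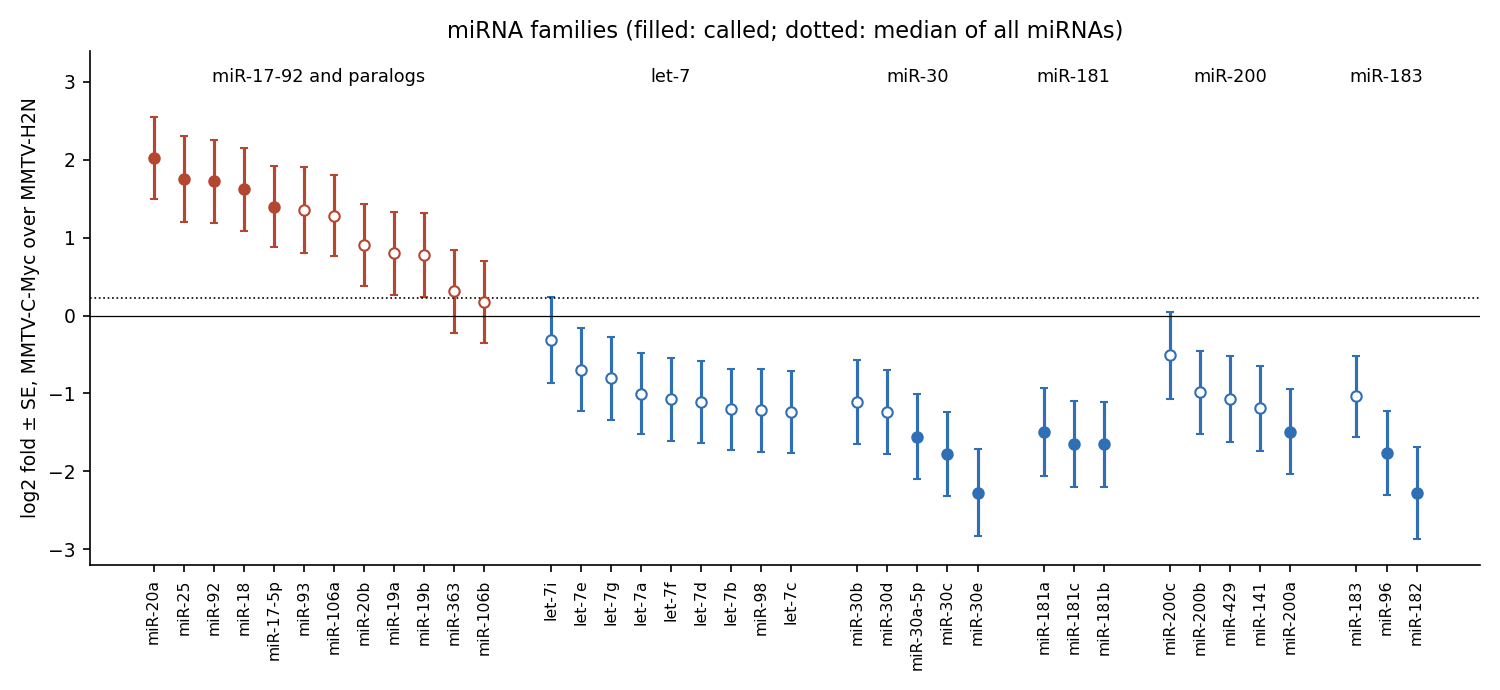
Log2 fold with its SE (y axis) for the members of 6 families or clusters (x axis), with filled points for calls. All 12 miR-17-92 members are above 0 and all let-7, miR-30, miR-181, miR-200 and miR-183 cluster members are below 0, and the dotted line is the median of all miRNAs, 0.23.

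The miR-30 family, described as restraining self-renewal of breast tumor-initiating cells, was lower in MMTV-C-Myc tumors for 3 of its 5 members (background 9.28%), and all 5 folds were negative with a median of -1.56. miR-30e measured 1068, 609, 429.8 and 303 units in MMTV-C-Myc and 1999, 6629.6, 5016, 3509 and 3508 in MMTV-H2N. The signals were separate, whereas the scaled levels of the groups overlapped (log2 fold -2.27 ± 0.56, adjusted p = 0.00144). miR-30c had a log2 fold of -1.78 ± 0.54 (adjusted p = 0.01, or 0.0558 without MMTV-C-Myc replicate 3). miR-30c-1 and miR-30e are neighbors on chromosome 4 (chr4:120769584-120772681). miR-30a-5p (-1.56 ± 0.55, adjusted p = 0.028) was lost without MMTV-C-Myc replicate 3 or 4 or MMTV-H2N replicate 1, 3 or 4, at up to 0.135. The members not called were miR-30d (-1.23 ± 0.54, adjusted p = 0.0825) and miR-30b (-1.11 ± 0.54, adjusted p = 0.124). All 5 were lower calls with the 75th percentile, the brightest miRNAs, quantiles or no scaling, and 1 was without MMTV-C-Myc replicate 3. Over all 334 miRNAs these settings gave 94, 50, 65, 57 and 19 lower calls.

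All 3 measured miR-181 members, which share the seed ACAUUCA and are known for roles in lymphocyte development, were lower calls (background 9.28%). Their log2 folds were -1.49 ± 0.56 for miR-181a, -1.65 ± 0.55 for miR-181b and -1.65 ± 0.55 for miR-181c, and the groups overlapped for each. Each call was lost in some analyses with 1 array left out. For miR-181a these were 7 of 9, all but those without MMTV-C-Myc replicate 1 or MMTV-H2N replicate 5 (adjusted p up to 0.170). miR-181b was lost without MMTV-C-Myc replicate 2 or MMTV-H2N replicate 1, 3 or 4 (up to 0.103), and miR-181c without MMTV-C-Myc replicate 3 or MMTV-H2N replicate 1 or 3 (up to 0.0910).

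The miR-183, miR-96 and miR-182 cluster of chromosome 6 (chr6:30165962-30169732), best known from sensory organs, was lower for miR-182 and miR-96, 2 of its 3 members (background 9.28%). miR-182 measured 448, 52.0, 278 and 57.6 units in MMTV-C-Myc and 1089, 1479, 1184, 506 and 988 in MMTV-H2N. MMTV-C-Myc replicates 2 and 4 were below the floor, and the scaled levels overlapped (log2 fold -2.28 ± 0.59, adjusted p = 0.00238). miR-96 followed with -1.76 ± 0.54 (adjusted p = 0.0116), and miR-183 with -1.04 ± 0.51 (adjusted p = 0.13) was above the floor on no MMTV-C-Myc array. Both means of miR-182 lay below those of the other models under the same promoter, which were 5.09 in MMTV-Hras and 3.19 in both MMTV-PymT and MMTV-Wnt, against 1.80 in MMTV-H2N and -0.48 in MMTV-C-Myc.

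Of the 5 epithelial miR-200 family members 1 was a lower call with the arrays scaled to their median (background 9.28%), miR-200a at -1.49 ± 0.55 (adjusted p = 0.0382), from a mean level of 6.69 ± 0.98 (SD) in MMTV-H2N to 5.20 ± 0.77 in MMTV-C-Myc. That call was lost without MMTV-C-Myc replicate 3 or 4 or MMTV-H2N replicate 2, 3 or 4, at up to 0.151. It was also lost in the wider fits and by the methods' t-test, at up to 0.383 over all alternatives. The other 4 were not called, at -1.19 for miR-141, -1.07 for miR-429, -0.99 for miR-200b and -0.51 for miR-200c. With the 75th percentile all 5 were lower calls, and with the brightest miRNAs, quantiles or no scaling 4 were, all but miR-200c. Over all 334 miRNAs these settings gave 94, 50, 65 and 57 lower calls. miR-205, enriched in basal mammary epithelium, went the other way. Its signals were 2900.1, 2570.4, 5329 and 1379.9 units in MMTV-C-Myc and 799, 1695, 1133, 747 and 1402 in MMTV-H2N, and its scaled levels were separate (log2 fold 1.86 ± 0.52, adjusted p = 0.00604). miR-31, a further basal epithelial miRNA, was higher with 1.82 ± 0.56 (adjusted p = 0.0114, or 0.107 without MMTV-C-Myc replicate 3), and that call was also lost with the 75th percentile, the brightest miRNAs, quantiles or no scaling, at up to 0.261 over all alternatives. The miR-205 call was lost with no scaling and in the wider fits, at up to 0.22. miR-203, a miRNA of stratified epithelium, had a log2 fold of -0.35 ± 0.53 and was not called.

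Of 7 miRNAs linked to ErbB receptors or their signaling, 3 were higher calls in MMTV-C-Myc and none was lower, against a background of 17.1%. These were miR-21, miR-205, which represses ErbB3, and miR-331, which represses ERBB2 in human cells. miR-331 had a mean level of 4.72 ± 1.43 (SD) in MMTV-C-Myc and 2.46 ± 0.88 in MMTV-H2N, with overlap (log2 fold 2.26 ± 0.58, adjusted p = 0.00238). The miR-331 call was lost with unscaled values and by the methods' t-test, at up to 0.0884 over all alternatives. In the family of miR-130 and miR-301, miR-301 was higher at 2.07 ± 0.52 (adjusted p = 0.00182), a fold close to background, with 1 MMTV-H2N array and 3 MMTV-C-Myc arrays above the floor. miR-301b, above the floor on no MMTV-H2N array and on 2 MMTV-C-Myc arrays, was at least 1.61-fold higher (adjusted p = 0.0163, or 0.0524 without MMTV-C-Myc replicate 3). The miR-301b call was also lost with the 75th percentile, with unscaled values and in the wider fit on the MMTV models, at up to 0.185. The miR-130b fold was -0.75 ± 0.53, and this family therefore held 2 higher calls among 4 members (background 17.1%).

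Markers of other cell types in the tumors were measured alongside. None of the 5 stroma and smooth muscle miRNAs was called by limma (1 at an unadjusted p under 0.05, and 1 called by the methods' t-test), although all 5 folds were positive with a median of 0.98, and their summed signal was 26881 to 31432 units in MMTV-C-Myc and 9087 to 34997 in MMTV-H2N. Of the 5 leukocyte miRNAs 1 was a higher call (background 17.1%), miR-142-5p at 1.92 ± 0.56 (adjusted p = 0.0077, but up to 0.0932 over the alternatives, the call being lost with the 75th percentile, quantiles, no scaling or the methods' t-test), and miR-223, a myeloid miRNA, just missed the threshold at 1.36 ± 0.53 (adjusted p = 0.0501). The summed leukocyte signal was 4307 to 8189 units against 2725 to 7356. None of 3 red cell miRNAs (median -1.04) and none of 3 skeletal muscle miRNAs was called by limma, with 0 at an unadjusted p under 0.05, or by that t-test. Their summed signals were 18473 to 158145 units in MMTV-C-Myc against 57648.5 to 150547 for red cells, and 1762 to 5532 against 1404 to 8331 for muscle. The ranges of both overlapped, and the part of any of these cell types in the other results was not tested.

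The position of the models among those under the same promoter differed by miRNA. Of the 57 higher calls, the MMTV-C-Myc mean was above the means of MMTV-Hras, MMTV-PymT and MMTV-Wnt in 46, the MMTV-H2N mean was below them in 24, and both held in 13. Of the 31 lower calls, the MMTV-H2N mean was above the other 3 models in 18, the MMTV-C-Myc mean was below them in 9, and both held in 3. miR-615 and miR-666 were of the first kind, with MMTV-C-Myc means of 6.57 and 5.06 and MMTV-H2N means of 1.51 and -0.17. The means of miR-615 in the other MMTV models were 0.22 to 1.83, and those of miR-666 were -1.52 to 2.05, and no array of these models reached the MMTV-C-Myc mean of either miRNA. Both are on the list the study drew from these samples for MMTV-C-Myc, so this position was part of how they were chosen. The calls were chosen by the difference between MMTV-C-Myc and MMTV-H2N on these same arrays, which by itself favors such positions. No share over all 334 miRNAs was computed, so the counts are not read as a result about either model. These positions are a description, since the groups differ in signal over background, and the order was not tested.

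**Figure D5:**
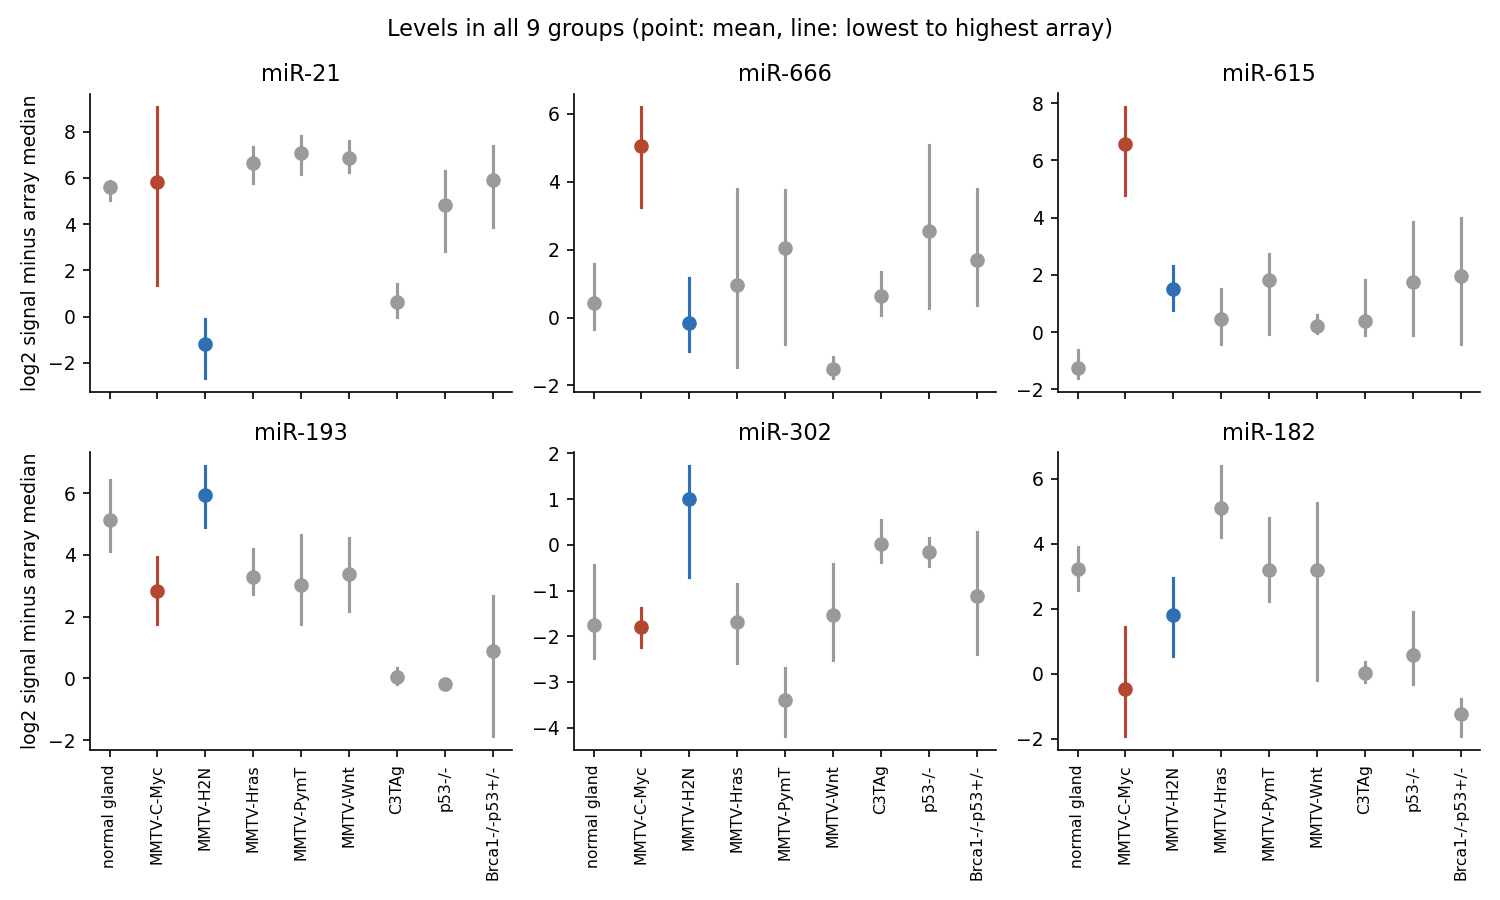
Level (log2 signal minus the array median, y axis) of miR-21, miR-666, miR-615, miR-193, miR-302 and miR-182 in all 9 groups (x axis), with the mean as a point and a line from the lowest to the highest array. MMTV-H2N has the lowest mean for miR-21 (-1.17), although C3TAg had 1 of 5 arrays above the floor there and MMTV-H2N 3 of 5. MMTV-C-Myc is the highest for miR-666 (5.06) and miR-615 (6.57), both from the list the study drew from these samples.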

How the data were processed

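Total RNA was labeled by the authors with the dye Hy3 and hybridized to a custom one-color array whose probes hold mature miRNA sequences. The deposited raw table gives the processed signal intensity of each plus-strand mouse spot in array units, from which all values here were computed. The deposited log2 table equaled these values minus the array median plus a constant of 8.00. Each array was centered on the log2 median of its 1336 spots, and the mean of its 4 spots was the level of a miRNA. The package limma (version 3.58.1, functions lmFit and eBayes, R version 4.3.3) was used for a fit on the 9 arrays without covariates. Slide and scan were not given in the sources used here, so batch could not be examined. The number of arrays limits the precision. A further 1 column, named as a C-Myc tumor but matching no sample label, was not used here, so a possible additional tumor of that group does not enter the comparison.

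The samples, the 33 lists (194 of 223 listed miRNAs on the array) and the named miRNAs were chosen with earlier results of these data known. Named were the 12 largest folds per direction among separate calls above the floor on at least 50% of the arrays of the higher group, in each list the 4 or fewer members whose fold was farthest from 0, and the miRNAs that the study named for either model. miR-503, miR-17-5p, the further list members with values and those in the other observations were chosen after their values were seen. Older array names were paired with current arms by hand, and a check of GC content was void, since 38% of the miRNAs had a sequence. Alternatives covered scaling, background, filters, spots, weights, wider fits, the methods' t-test, a replicate block and each array left out.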

Additional observations from a re-analysis of the deposited data

Results flagged for a closer look

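In groups of 4 or 5 arrays, a single array lay far from the rest of its group (by Dixon's gap ratio at the 95% level) in 15 of the 202 groups of the 101 miRNAs examined, and chance alone marks about 1 in 20 groups. MMTV-C-Myc replicate 1 was high at miR-106a (level 4.85), miR-20a (5.01) and miR-183 (-0.84, below the floor). MMTV-C-Myc replicate 4 was low at miR-205 (2.65) and miR-301 (-0.50) and high at miR-320 (5.79), and replicate 2 was high at miR-378 (-1.07). MMTV-H2N replicate 1 was low at miR-302 (-0.71) and miR-378 (-0.75) and high at miR-696 (0.13) and miR-96 (2.27). MMTV-H2N replicate 5 was low at miR-301 (-3.05), miR-331 (0.92), miR-494 (4.18) and miR-92 (-0.23). The groups of miR-20a, miR-205, miR-301, miR-302, miR-378, miR-494, miR-696 and miR-92 did not overlap with these arrays included.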

How the results depend on the processing

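Of 63 miRNAs named and called, 35 passed the threshold in every alternative that held them, and none was called in the opposite direction in any. Against 57 higher and 31 lower calls, higher calls were 34 without scaling and 36 for unscaled values after subtraction of the floor. Lower calls were 94 with the 75th percentile (134 calls in all), 50 with the brightest miRNAs, 65 with quantiles, 57 without scaling, 65 for unscaled values after subtraction of the floor, 18 over the miRNAs at or above the median signal, 56 with array weights and 19 by the methods' t-test (after Benjamini-Hochberg). With an array left out in turn, higher calls were 50 to 62, lower calls 19 to 51 and all calls 69 to 113. Replicate numbers do not pair the tumors (mean correlation 0.070 for arrays of one number and -0.017 for others, with 1 array closest to its own number). A fit with the replicate number as a block, which leaves out MMTV-H2N replicate 5, gave 60 higher and 55 lower calls (115 in all). The fold of miR-185 (mmu-miR-185), 0.32, became -0.41 with the 75th percentile, -0.16 with quantiles, -0.24 without scaling, -0.25 for unscaled values after subtraction of the floor, -0.38 with array weights and -0.00707 without MMTV-C-Myc replicate 4 (up to 0.65 with another array left out). That of mmu-miR-691, -0.18, became 0.0832 without MMTV-C-Myc replicate 2 (down to -0.39 with another array left out). The cause of these changes was not tested. Signal over background limits the folds of miRNAs that are above the floor in one model alone.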

Other observations

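Within the imprinted Dlk1-Dio3 region of chromosome 12, 8 of 44 measured miRNAs were higher calls in MMTV-C-Myc tumors and 2 were lower. The backgrounds were 17.1% and 9.28% of all miRNAs. A set of 6 chosen members spans chr12:109563744-109728157 (GRCm38.p6), and the region reaches further, with miR-369-5p at chr12:109743431-109743452. The median log2 fold of the region was 0.39, beside 0.23 over all miRNAs. Beside miR-666 and miR-494, the higher calls included miR-770-3p (2.97 ± 0.59, adjusted p = 9.16e-05 by limma, groups overlapping) and miR-665 (2.83 ± 0.53, adjusted p = 3.76e-05, groups separate), and the lower calls included miR-539. Of the 44 folds, 33 were positive and 11 negative. The share of higher calls was near that over all miRNAs, so the counts are not read as a result about the region.

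The embryonic stem cell clusters miR-290 to miR-295 and miR-302 to miR-367 held 3 higher and 2 lower calls among 12 members, beside the same background shares of 17.1% and 9.28%. So few calls are not read as a result about the clusters. miR-290 was higher, with 349, 1332, 1852 and 3751 units in MMTV-C-Myc and 232, 467, 73.2, 168 and 633 in MMTV-H2N (log2 fold 3.02 ± 0.57, adjusted p = 3.91e-05). miR-294, from the same cluster (chr7:3218639-3220712), was lower, with 42.6, 44.2, 131 and 78.4 units against 114, 688, 742, 512 and 1419 (log2 fold -2.45 ± 0.52, adjusted p = 0.00025). The scaled levels of both were separate between the models, and 1 MMTV-C-Myc array was above the floor at miR-294. miR-291a-5p, above the floor on no MMTV-H2N array, was at least 2.50-fold higher in MMTV-C-Myc. Bases 3 to 8 of miR-17-5p equal bases 2 to 7 of miR-294 (6 of 6), and miR-17-5p was higher while miR-294 was lower in MMTV-C-Myc. With median scaling none of the 7 measured miRNAs of the Sfmbt2 intron cluster was called by limma (2 at an unadjusted p under 0.05, and 2 lower calls by the methods' t-test), with a median log2 fold of -0.76. By limma 5 were lower calls with the 75th percentile, 2 with quantiles or no scaling and 1 with the brightest miRNAs. Over all 334 miRNAs these settings gave 94, 65, 57 and 50 lower calls, and the t-test gave 19.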
